A study of Mus musculus with 4 samples.

Results

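Cholesterol efflux and esterification were followed through 8 genes, Abca1, Abcg1, Apoe, Apoc2, Pltp, Soat1, Nceh1 and Mylip, in mouse bone marrow (BM) macrophages that had or had not engulfed apoptotic prostate cancer cells. The genes were matched by symbol among the 31053 genes of the deposited matrices, and all 8 were found and had enough counts to be tested. Per the methods of the paper, BM macrophages came from male C57BL/6J mice of 4 to 6 weeks (4 weeks in its legends) and were grown with M-CSF. The efferocytic group was co-cultured for 16–18 h with RM1 cells, a prostate cancer line of C57BL/6J mice made with Ras and Myc, which had been labeled with the dye CFSE and killed by UV light, and was sorted as F4/80+CFSE+. The non-efferocytic group was sorted as F4/80+ only and is described in the paper as BM macrophages alone. The labels do not say whether these cells had stood in the co-culture, so that contact with dying cells and their uptake cannot be told apart. Each of 2 experiments gave 1 library of each group. The labels do not tie the libraries to mice, and p-values therefore measure the spread between libraries, which may be technical.

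A macrophage that takes up a dying cell takes up its membranes and with them cholesterol, which it cannot break down. Cholesterol freed in the lysosome can be pumped out across the plasma membrane by ABCA1 and ABCG1, be carried off by lipoproteins whose proteins include APOE and APOC2, or be esterified by SOAT1 and stored in lipid droplets. NCEH1 hydrolyzes the stored esters. Oxysterols activate the nuclear receptors LXRα and LXRβ, encoded by Nr1h3 and Nr1h2, which with RXR bind DNA at a repeat of the letters AGGTCA, and Abca1, Abcg1, Apoe, Apoc2, Pltp and Mylip are textbook LXR targets. PLTP transfers phospholipids between lipoproteins, and MYLIP (also called IDOL) is the ubiquitin ligase that sends the LDL receptor to degradation.

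The sequence before the transcription start was searched for motifs. RefSeq promoters on GRCm38.p6 were matched by symbol for 7 of the 8 genes, and the 250 bases before each start were read. An LXR element was searched as the letters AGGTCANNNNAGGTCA on both strands with at most 2 mismatches over the fixed letters. It was found before none of these genes, and 2.57% of all 32851 promoters held it in the same window. An element with more than 2 mismatches could not be found by this search. The lack of a match therefore does not show the lack of an LXR element. The letters CACGTG, which read the same on both strands, stood before Abca1, 141 bases from the start, and before Nceh1, 20 bases from the start. Of all promoters, 6.02% held them. These starts are those of RefSeq. The GENCODE annotation begins Nceh1 at 27182965, inside the window and before the motif, which by that annotation lies within the gene. A match describes letters and not a bound site, and distant elements lie outside this window. The promoters with that motif are shown with it in capitals, followed by those of Apoe and Pltp, the pair of genes whose levels ran most closely together across clusters of cells, each 250 bases and 5′ to 3′ on the strand of the gene.
Abca1, chr4:53159896-53160145, minus strand: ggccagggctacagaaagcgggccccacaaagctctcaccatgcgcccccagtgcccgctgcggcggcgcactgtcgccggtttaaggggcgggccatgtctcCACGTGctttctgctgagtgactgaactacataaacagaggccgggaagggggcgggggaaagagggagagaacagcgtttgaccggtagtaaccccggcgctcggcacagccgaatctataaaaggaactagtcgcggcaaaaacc
Nceh1, chr3:27182754-27183003, plus strand: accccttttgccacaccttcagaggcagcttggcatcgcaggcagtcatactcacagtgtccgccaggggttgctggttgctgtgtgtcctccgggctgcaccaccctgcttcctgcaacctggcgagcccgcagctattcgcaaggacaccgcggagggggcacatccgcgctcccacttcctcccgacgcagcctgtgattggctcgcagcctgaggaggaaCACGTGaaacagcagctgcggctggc
Apoe, chr7:19699189-19699438, minus strand: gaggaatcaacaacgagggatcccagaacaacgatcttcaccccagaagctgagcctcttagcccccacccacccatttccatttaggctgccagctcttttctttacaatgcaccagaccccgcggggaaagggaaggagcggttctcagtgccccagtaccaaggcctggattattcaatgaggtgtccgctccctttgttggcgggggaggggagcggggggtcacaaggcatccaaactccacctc
Pltp, chr2:164857709-164857958, minus strand: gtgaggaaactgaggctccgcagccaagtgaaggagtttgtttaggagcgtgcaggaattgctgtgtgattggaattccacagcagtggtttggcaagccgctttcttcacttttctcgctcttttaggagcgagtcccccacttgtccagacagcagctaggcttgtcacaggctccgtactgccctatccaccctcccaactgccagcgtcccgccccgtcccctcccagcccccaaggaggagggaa

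In 3′ libraries of 10X Genomics each molecule carries a unique molecular identifier (UMI), counted once, and a barcode that names its cell. A barcode was taken as a cell with 200 genes or more, 1000 UMIs or more and no more than 10% of UMIs from mitochondrial genes, which left 6695 to 13411 cells and 101216659 to 155224183 UMIs per library. The level of a gene is given as CPM, its UMIs for each 1000000 UMIs in the cells of a library, with no correction for gene length. Clusters called macrophage-like by markers held 87.5% and 86.1% of cells (non-efferocytic and efferocytic) in Experiment 1 and 57.0% and 93.9% in Experiment 2. All 8 macrophage markers stood above 1 CPM in every library, but so did all 7 markers of the neutrophil lineage. Efferocytic cells held a median of 17171 and 17476 UMIs and non-efferocytic cells 11146 and 9600. Markers of the neutrophil lineage summed to 3040 and 3334 CPM in the non-efferocytic libraries against 950 and 704 CPM in the efferocytic ones, and 7 of 7 were called lower. Monocyte markers went the same way, at 58.3 and 61.0 CPM against 21.6 and 10.7 CPM, as did fibroblast markers, at 144 and 119 CPM against 45.7 and 51.6 CPM. Markers of epithelial cells summed to 0.415 and 0.0960 CPM (non-efferocytic and efferocytic) in Experiment 1 and to 8.98 and 7.38 CPM in Experiment 2. Whether RM1 cells, named fibroblast-like in the supplement of the paper, express these markers was not tested. Erythroid markers summed to 0.484 and 0.264 CPM (non-efferocytic and efferocytic) in Experiment 1 and to 39.8 and 41.1 CPM in Experiment 2. Experiment 2 also held a T cell-like cluster of 71 and 63 cells. Xist was among the leading genes of that cluster and of an unnamed one of 79 and 27 cells. The source of these cells was not tested. RM1 is a mouse line, so that engulfed RNA could not be told apart here from that of the macrophages. The non-efferocytic and efferocytic libraries of Experiment 2 shared 118 barcodes among their cells where chance gave 16.6, and the former held 36048 barcodes of 500 to under 1000 UMIs against at most 2046 in the others. When the cells with barcodes found in both libraries of an experiment were removed, an alternative chosen after seeing the data, Abcg1 was no longer called (edgeR adjusted p = 0.053) at a log2 fold change of 0.47, as with all cells, and the calls of the other 7 genes were the same.

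Efferocytic BM macrophages held a smaller share of transcripts for Abca1, Apoe, Apoc2 and Pltp and a larger share for Abcg1, Soat1 and Nceh1. For each library the UMIs of all its cells were added up, and the sums were tested by the quasi-likelihood method of edgeR with TMM scaling, the experiment as a block and Benjamini-Hochberg adjustment over 13869 genes at a threshold of 0.05. By this test 3 of the 8 genes were higher, 4 were lower and Mylip was not called, while 38.9% of all genes tested were called, 19.9% higher and 19.0% lower. The CPM of the groups did not overlap for 7 of the 8 genes, as for 66.9% of all genes tested. The median log2 fold change was -0.15 over the 8 genes and -0.02 over all genes. Without the block, 2 genes were higher (Soat1 and Nceh1) and 1 was lower (Pltp), while over all 13869 genes 1285 were higher and 1073 lower. When 10% of UMIs were taken away as free RNA, Nceh1 alone was called higher and Pltp alone lower, and calls over all genes went from 5397 to 2473. The log2 fold changes were then -0.41 for Abca1, 0.44 for Abcg1, 0.48 for Soat1, -0.79 for Apoe and -0.79 for Apoc2. A library can be left out only from the fit without the block, and 1 library then stands for a group. Fewer of the 8 genes were called in each of these fits, as were fewer of all genes. Their log2 fold changes ran from -0.49 to -0.27 for Abca1, 0.30 to 0.67 for Abcg1 and -1.07 to -0.39 for Apoe. For Apoc2 they ran from -1.43 to -0.52, for Pltp from -1.19 to -0.97 and for Mylip from -0.099 to 0.29. Soat1 had 0.43 to 0.58 and Nceh1 0.49 to 0.64.

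**Figure D1:**
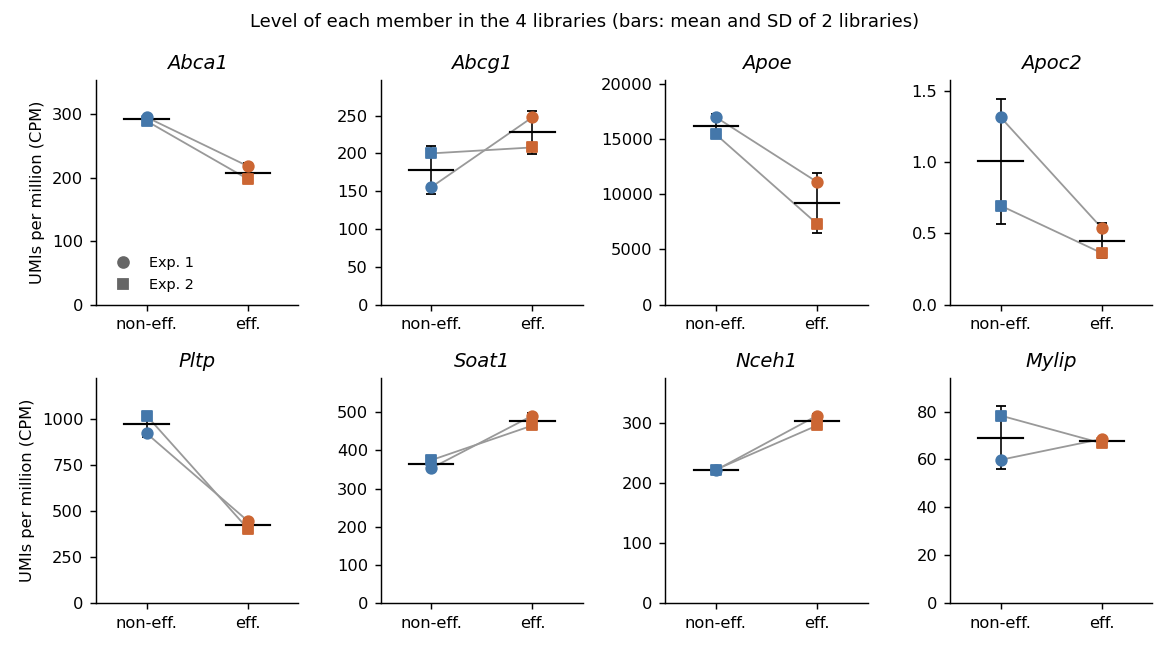
Level of each gene in CPM (linear axes from 0) in the 2 non-efferocytic and 2 efferocytic libraries, with points joined within an experiment and black bars for the mean and SD of 2 libraries. The groups are apart for 7 genes, by the ratio of the means most widely for Pltp (972 against 425 CPM on average), and overlap for Mylip.

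Of the transporters, Abca1, which loads cholesterol and phospholipid onto lipid-poor apolipoproteins, lay on chromosome 4 from 53030787 to 53159895 on the minus strand (GENCODE vM21, GRCm38). Its level was 295 CPM in the non-efferocytic and 218 CPM in the efferocytic library of Experiment 1, and 289 and 198 CPM in those of Experiment 2. Both efferocytic libraries lay below both non-efferocytic ones. The means were 292 ± 4.18 CPM and 208 ± 14.4 CPM (SD, n = 2 libraries each), and the log2 fold change was -0.39 (SE 0.0984, edgeR adjusted p = 0.017). Among cells of 10000 to 20000 UMIs alone it was -0.12 (SE 0.106, edgeR adjusted p = 0.40), and Abca1 was then not called.

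Abcg1, which passes cholesterol on to mature lipoprotein particles, lay on chromosome 17 from 31057675 to 31117988 on the plus strand. It was measured at 155 CPM and 248 CPM (non-efferocytic and efferocytic) in Experiment 1 and at 200 CPM and 208 CPM in Experiment 2. The groups did not overlap, but the log2 ratio of CPM was 0.67 in Experiment 1 and 0.06 in Experiment 2. The edgeR log2 fold change was 0.47 (SE 0.154, edgeR adjusted p = 0.042). The call was lost in 7 of 14 alternatives with all 4 libraries, among them macrophage-like clusters alone, where the log2 fold change was 0.35 (edgeR adjusted p = 0.17). It was 0.30 both without the efferocytic and without the non-efferocytic library of Experiment 1 (edgeR adjusted p = 0.25 and 0.39).

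Apoe, the apolipoprotein that macrophages secrete and that carries cholesterol to receptors of the LDL receptor family, lay on chromosome 7 from 19696109 to 19699188 on the minus strand. Its level was 16952 CPM and 11086 CPM (non-efferocytic and efferocytic) in Experiment 1 and 15395 CPM and 7294 CPM in Experiment 2. It stood between the 4th and the 10th place of all genes by CPM. Both efferocytic libraries were lower, and the efferocytic library of Experiment 2 was the lowest. The means were 16173 ± 1101 and 9190 ± 2682 CPM (SD, n = 2), and the log2 fold change was -0.74 (SE 0.219, edgeR adjusted p = 0.030). With the efferocytic library of Experiment 2 left out it was -0.39 (edgeR adjusted p = 0.11), and with that of Experiment 1 left out -1.07 (edgeR adjusted p = 0.014). Barcodes with fewer than 100 UMIs, which hold mainly free RNA, had 13582 and 16158 CPM of Apoe in the non-efferocytic and 10541 and 9266 CPM in the efferocytic libraries, so that free RNA also held less of it in the efferocytic libraries. With 10% of UMIs removed as free RNA the log2 fold change was -0.79 (edgeR adjusted p = 0.055).

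Apoc2, the cofactor that activates lipoprotein lipase, lay on chromosome 7 from 19671579 to 19677941 on the minus strand, in the same gene cluster as Apoe. It had only 133 and 67 UMIs (non-efferocytic and efferocytic) in Experiment 1 and 96 and 56 UMIs in Experiment 2, or 1.31, 0.536, 0.694 and 0.361 CPM in that order. Barcodes under 100 UMIs held 1.35, 0.549, 2.23 and 0.175 CPM of it, so that its level in cells was no higher than in free RNA in 3 of 4 libraries. The log2 fold change was -1.02 (SE 0.221, edgeR adjusted p = 0.0090), and DESeq2, with an adjusted p of 0.11, did not call it. It was -0.87 in macrophage-like clusters alone (edgeR adjusted p = 0.051) and -0.52 without the non-efferocytic library of Experiment 1 (edgeR adjusted p = 0.51). Gm44805, which the annotation places over Apoc2 and its neighbor Apoc4 on the same strand, was listed at 0 UMIs in all 4 libraries. How the authors' counting treated reads that fall in both genes is not stated in the sources used here, and the level of Apoc2 is therefore uncertain.

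Pltp had the largest absolute log2 fold change among the 7 of these genes with a mean above 10 CPM. It lay on chromosome 2 from 164839518 to 164857711 on the minus strand and overlaps Ctsa, which lies on the other strand and cannot be told apart if strand was not used in counting. The level was 924 CPM and 447 CPM (non-efferocytic and efferocytic) in Experiment 1 and 1021 CPM and 404 CPM in Experiment 2. Both efferocytic libraries thus lay far below the non-efferocytic ones. The means of 972 ± 68.5 and 425 ± 29.9 CPM (SD, n = 2) gave a log2 fold change of -1.09 (SE 0.128, edgeR adjusted p = 0.00067), or a 2.12-fold lower level. This call held in all 14 alternatives with 4 libraries, with log2 fold changes of -1.19 to -0.47.

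Soat1, the enzyme of the endoplasmic reticulum that esterifies cholesterol, lay on chromosome 1 from 156424525 to 156474331 on the minus strand. It was measured at 353 CPM and 491 CPM (non-efferocytic and efferocytic) in Experiment 1 and at 374 CPM and 465 CPM in Experiment 2. The efferocytic libraries were both higher. The means were 364 ± 14.9 and 478 ± 18.4 CPM (SD, n = 2), with a log2 fold change of 0.50 (SE 0.109, edgeR adjusted p = 0.0089). It was called in 13 of 14 alternatives with 4 libraries, the exception being the removal of free RNA (edgeR adjusted p = 0.052).

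Nceh1, the neutral hydrolase that releases cholesterol from its esters, lay on chromosome 3 from 27182965 to 27284608 on the plus strand. Its level was 222 CPM and 313 CPM (non-efferocytic and efferocytic) in Experiment 1 and 223 CPM and 296 CPM in Experiment 2. The non-efferocytic libraries were nearly equal, and both efferocytic libraries lay above them. The means were 222 ± 0.642 and 304 ± 11.7 CPM (SD, n = 2), with a log2 fold change of 0.56 (SE 0.0979, edgeR adjusted p = 0.0035). The enzyme that makes the esters and the enzyme that cleaves them were thus both higher, and the call of Nceh1 held in all 14 alternatives with 4 libraries.

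Mylip, on chromosome 13 from 45389742 to 45412022 on the plus strand, was measured at 59.8 CPM and 68.6 CPM (non-efferocytic and efferocytic) in Experiment 1 and at 78.3 CPM and 66.8 CPM in Experiment 2. The efferocytic libraries lay between the non-efferocytic ones. The log2 fold change was 0.09 (SE 0.118, edgeR adjusted p = 0.58). Among cells of 10000 to 20000 UMIs it was 0.31 (SE 0.107, edgeR adjusted p = 0.044), and there Mylip was called higher.

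Share and amount per cell gave different pictures for several genes, since efferocytic cells held more UMIs. Apoe had 207 UMIs per cell in both libraries of Experiment 1, and 159 and 135 UMIs per cell (non-efferocytic and efferocytic) in Experiment 2. Abca1 had 3.61 and 4.07 UMIs per cell in Experiment 1 and 2.98 and 3.65 in Experiment 2, so that its direction turned. Pltp was lower on this scale too, with 11.3 and 8.34 UMIs per cell in Experiment 1 and 10.5 and 7.46 in Experiment 2. Soat1 had 4.32 and 9.18 UMIs per cell in Experiment 1 and 3.86 and 8.59 in Experiment 2, and Nceh1 went from 2.71 to 5.84 and from 2.30 to 5.47. With this scaling the median over all genes stood at a log2 fold change of 0.60, and 92.2% of calls were higher against 51.2% with TMM. On that scale 4 of the 8 genes were higher (Abcg1, Soat1, Nceh1 and Mylip) and 1 was lower (Pltp). Over all 13869 genes tested 6921 were then higher and 586 lower, so that the count of higher genes lies near the share over all genes. The log2 fold change was 0.23 for Abca1 (edgeR adjusted p = 0.28), -0.12 for Apoe (edgeR adjusted p = 0.056) and -0.47 for Pltp (edgeR adjusted p = 0.0060). Abca1, Apoe, Apoc2 and Pltp lay below the median of all genes and Soat1, Nceh1 and Abcg1 above it. The change of scale moves all genes by nearly the same amount, so that this order is the same on both scales by construction. With library totals in place of TMM, where the median was -0.12 and 33.3% of calls were higher, 3 of the 8 genes were higher and 4 lower. Over all 13869 genes 1847 were then higher and 3700 lower.

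**Figure D2:**
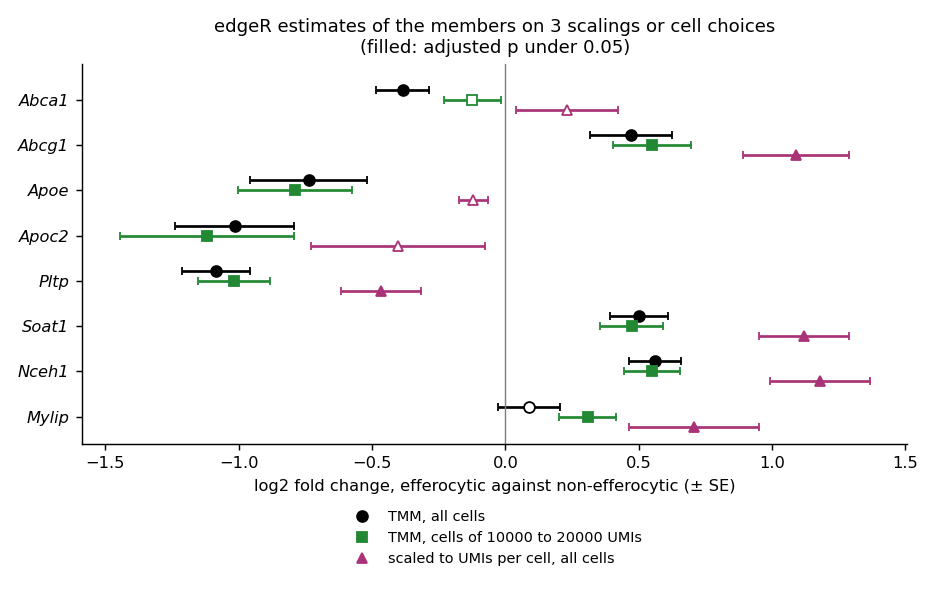
edgeR log2 fold change of each gene (x axis, efferocytic against non-efferocytic, bars for the SE) with TMM over all cells, with TMM over cells of 10000 to 20000 UMIs, and scaled to UMIs per cell, where a filled symbol means an adjusted p under 0.05. Pltp is to the left and Soat1, Nceh1 and Abcg1 are to the right of 0 in all 3, while Abca1 moves from -0.39 to 0.23.

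Cells of like UMI number were compared next, in ranges that begin at 1000, 5000, 10000 and 20000 UMIs, each ending below the next, with 505 to 5154 cells per library and range. Pltp was lower in the efferocytic library in all 4 ranges of both experiments, with log2 ratios of CPM from -1.89 to -0.86. Apoe was lower in all of them as well, from -1.69 to -0.39, and farther below 0 in Experiment 2. Soat1 (0.24 to 0.93) and Nceh1 (0.18 to 0.65) were higher in every range of both experiments. Abca1 was lower in every range, but the log2 ratios were -0.56 and -0.75 in the cells with the fewest UMIs and between -0.27 and -0.08 in all other ranges. Its level also depended on the range itself, from 541 CPM in the smallest to 202 CPM in the largest cells of the non-efferocytic library of Experiment 1. Abcg1 was higher by 0.60 to 1.07 in Experiment 1, and in Experiment 2 its log2 ratio ran from -0.06 to 0.60.

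**Figure D3:**
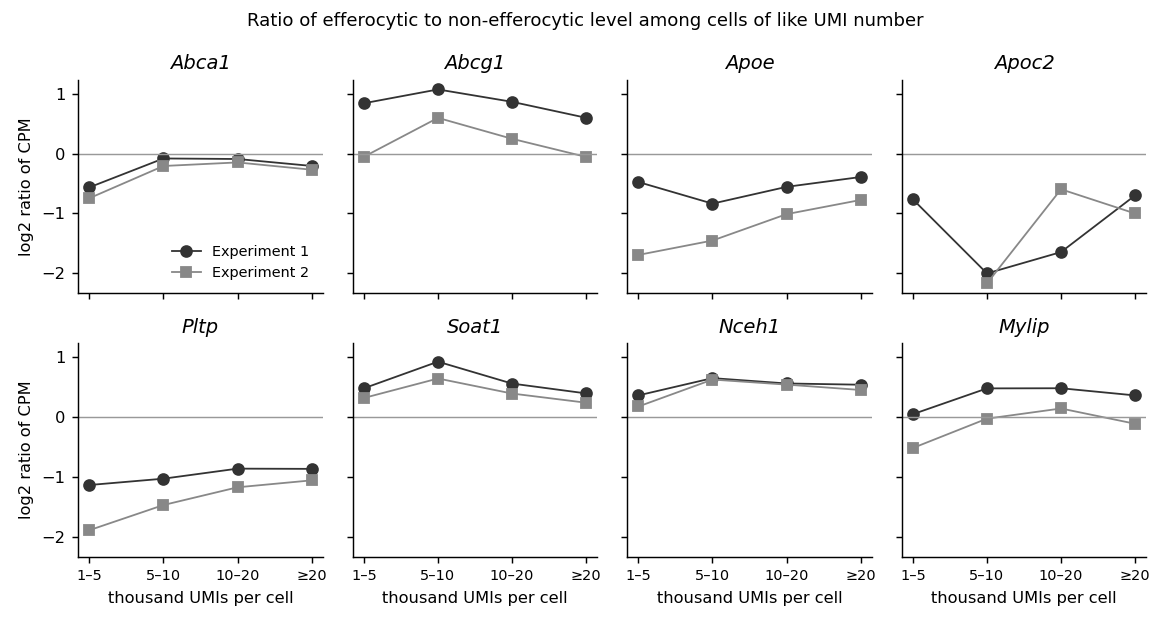
Log2 ratio of CPM between the efferocytic and the non-efferocytic library (y axis) among cells of 4 ranges of UMI number (x axis), 1 line per experiment. The lines of Pltp and Apoe stay below 0 and those of Soat1 and Nceh1 above it, and Apoc2 lacks the first range of Experiment 2, where a library had no UMI of it.

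The share of cells with at least 1 UMI was compared after each cell was thinned to 5000 UMIs, which left out 1099 and 544 cells (non-efferocytic and efferocytic) of Experiment 1 and 3404 and 505 cells of Experiment 2. Pltp was found in 94.0% and 79.3% of cells (non-efferocytic and efferocytic) in Experiment 1 and in 94.1% and 76.6% in Experiment 2. Abca1 was found in 70.8% and 62.7% in Experiment 1 and in 70.3% and 58.7% in Experiment 2. Both shares were lower in the efferocytic library of each experiment, with differences of -14.7 and -17.5 percentage points for Pltp and of -8.17 and -11.6 for Abca1. Nceh1 was found in 64.5% and 76.3% of cells in Experiment 1 and in 64.6% and 74.5% in Experiment 2. For Soat1 the shares were 78.0% and 88.0% in Experiment 1 and 80.3% and 87.4% in Experiment 2. Abcg1 was found in 48.2% and 68.0% of cells in Experiment 1 but in 56.5% and 61.1% in Experiment 2. Mylip was found in more efferocytic cells in Experiment 1 (29.3% against 24.6%) and in fewer in Experiment 2 (28.3% against 31.6%). Apoe was found in at least 98.4% of the cells of every library, a share so near its limit that it could show little change. Its differences were -0.17 and -1.37 percentage points in Experiments 1 and 2. The 95% Newcombe interval of the difference, for counting error in cells, left out 0 except for Apoe in Experiment 1, but cells of 1 library are not replicates.
Without thinning, Abca1 was found in 86.0% and 86.1% of cells in Experiment 1 and in 77.2% and 84.9% in Experiment 2, so that the direction of its share depends on depth.

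Cells of another type were read for background. Whether the UMIs found in them came from free RNA, from their own transcripts or from doublets was not tested. Among 226 neutrophil lineage-like cells thinned to 5000 UMIs, 86.3% held a UMI of Apoe, 37.2% of Pltp, 35.8% of Soat1, 27.4% of Nceh1, 22.1% of Abca1, 14.2% of Abcg1 and 8.85% of Mylip. The shares among 27197 macrophage-like cells were 99.5%, 86.0%, 84.3%, 71.3%, 66.5%, 59.2% and 29.2% in the same order, and thus higher for each. The median depth before thinning was 16373 UMIs in the former and 14364 UMIs in the latter. Apoc2 was found in 0.386% of macrophage-like cells, and in 0 of 226 neutrophil lineage-like cells, which allows a share of cells with a UMI of up to 1.33%. Apoc2 could therefore not be told from background by its share of cells.

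Within macrophage-like cells the spread of Apoe was wide. After thinning to 5000 UMIs, the 10th percentile, the median and the 90th percentile of Apoe were 27, 84 and 161 UMIs per cell in the non-efferocytic library of Experiment 1 and 12, 47 and 114 in the efferocytic library. In Experiment 2 they were 14, 65 and 140 UMIs and 6, 29 and 77.7 UMIs, respectively. The whole distribution was thus shifted in both experiments and the libraries overlapped widely. Pltp had a median of 4 and 5 UMIs in the non-efferocytic and of 2 UMIs in both efferocytic libraries. Across 5708 to 7764 cells of a library, which share that library and a fixed depth, Spearman's rho between Apoe and Pltp was 0.28 and 0.31 (non-efferocytic and efferocytic) in Experiment 1 and 0.37 and 0.22 in Experiment 2.

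Cells were clustered within each experiment, and different clusters held most of the macrophage-like cells in the 2 groups. In Experiment 1 the cluster led by Gpr34 and Hpgd held 51.2% of non-efferocytic and 1.72% of efferocytic cells, and the clusters led by Plpp3 and Fabp4 and by Lrrc14b and Cnrip1 held 37.9% and 33.3% of efferocytic cells. In Experiment 2 the cluster led by Cnrip1 and Cd33 held 53.2% of efferocytic and 0.992% of non-efferocytic cells. Clusters were made from the expression of 5000 variable genes, and levels between clusters are given as a description. Sums were taken over clusters with at least 50 cells of a library, 29 of them macrophage-like and 3 from the clusters led by Arg1 and by MHC class II genes. The leading genes of the latter held a monocyte marker and no macrophage marker, though all 8 macrophage markers were found in both clusters. Over these 32 sums Apoe ran from 771 to 21218 CPM and Pltp from 44.5 to 1382 CPM. Abca1 ran from 99.3 to 476 CPM, while Soat1, Nceh1, Abcg1 and Mylip varied less, with maxima of 2.58, 2.54, 2.82 and 2.85 times their minima.

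Among these sums, Apoe was lowest in the small cluster of Experiment 1 led by Cav1 and H2-Q6, with 1235 CPM (non-efferocytic) and 771 CPM (efferocytic), where Pltp was lowest as well, at 161 and 44.5 CPM. Apoe was highest in the cluster led by Gpr34 and Hpgd, at 21218 CPM among its 115 efferocytic cells, with 20695 CPM in its non-efferocytic cells. Pltp stood there at 1119 and 952 CPM (non-efferocytic and efferocytic). The non-efferocytic cells of the cluster of Experiment 1 led by Ifit1bl1 and Ifit2 held 20782 CPM of Apoe. In the cluster of Experiment 2 led by Hpgd and Clec10a, Abca1 and Pltp reached the highest levels of these sums, 476 and 1382 CPM, among 3083 non-efferocytic cells. The cluster led by the MHC class II genes H2-Eb1 and H2-Aa held 19986 CPM of Apoe but 227 CPM of Abca1 in its non-efferocytic cells. The efferocytic cluster of Experiment 1 led by Arg1 and Ankrd37 held 371 CPM of Abca1 and 14518 CPM of Apoe. Soat1 stood at 630 and 653 CPM in the efferocytic cells of the clusters led by Trib3, Phgdh and Prss46 in Experiments 1 and 2, and at 638 CPM in those of the cluster led by Cav1 and H2-Q6. In the cluster of Experiment 2 led by Cdkn1c and Pdpn, Apoe went the other way, with 2136 CPM in non-efferocytic and 4852 CPM in efferocytic cells, as it did in the cluster of Experiment 1 led by Plpp3 and Fabp4, with 4994 and 8498 CPM.

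**Figure D4:**
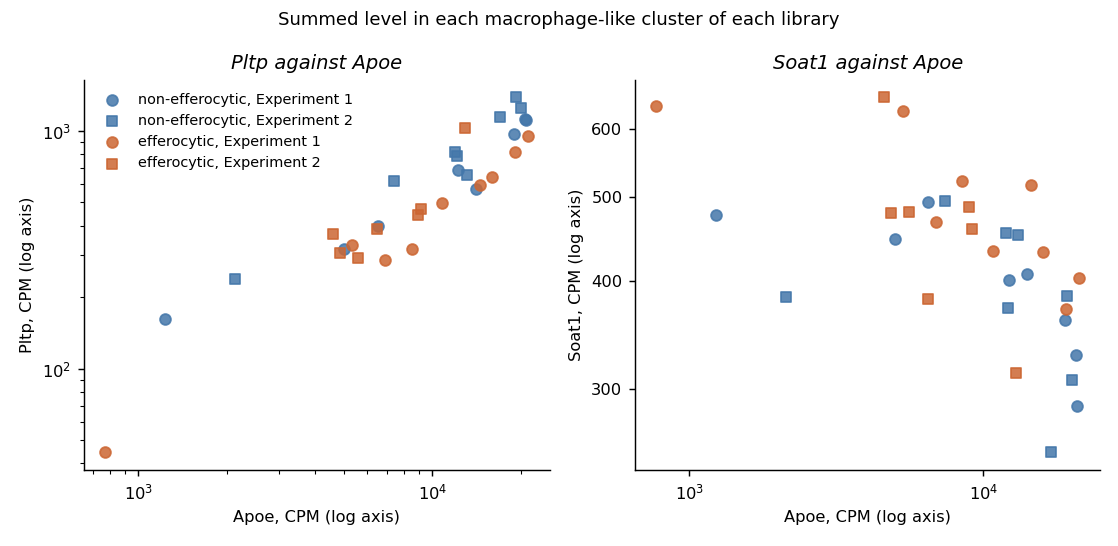
Summed level in each macrophage-like cluster with at least 50 cells of a library, with the clusters led by Arg1 and by MHC class II genes (32 points, log axes in CPM), with Pltp (left) and Soat1 (right) against Apoe, colors for the group and symbols for the experiment. Pltp follows Apoe across the clusters of both groups (Pearson's r of log2 values 0.94), and Soat1 tends to be lower where Apoe is high (-0.60); the points share libraries and are no replicates.

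Both libraries had at least 50 cells in 8 macrophage-like clusters of Experiment 1 and in 6 of Experiment 2, which allowed a comparison within clusters. The 6 include the cluster led by H2-Eb1 and H2-Aa, which was not part of the fit over macrophage-like clusters, and the log2 ratio there was 0.03 for Soat1, -0.06 for Nceh1, -0.28 for Pltp, -0.63 for Apoe and -0.42 for Abca1. Soat1 was higher in the efferocytic cells of 8 of 8 and 6 of 6 clusters, with a median log2 ratio of 0.28 and 0.20. Nceh1 was higher in 7 of 8 and 5 of 6 clusters (medians 0.22 and 0.19). Pltp was lower in 8 of 8 and 5 of 6 (medians -0.46 and -0.74). Apoe and Abca1 were each lower in 6 of 8 and 5 of 6, with medians of -0.21 and -0.52 for Apoe and -0.20 and -0.37 for Abca1. The medians of all 5 genes lay nearer to 0 than the log2 ratios of the whole libraries. Those were -0.61 and -1.08 for Apoe, -0.44 and -0.55 for Abca1 and -1.05 and -1.34 for Pltp. For Soat1 they were 0.48 and 0.31, and for Nceh1 0.50 and 0.41. Abcg1 was higher in 7 of 8 and 4 of 6 clusters (medians 0.38 and 0.10), and in Experiment 2 its log2 ratio was as low as -0.75. Mylip was higher in 8 of 8 clusters of Experiment 1 and in 2 of 6 of Experiment 2. In a fit over macrophage-like clusters alone, without the neutrophil lineage-like cells, Pltp had a log2 fold change of -1.08 (SE 0.0908, edgeR adjusted p = 0.0012), Apoe of -0.69 (SE 0.135, edgeR adjusted p = 0.012) and Abca1 of -0.50 (SE 0.0916, edgeR adjusted p = 0.010). Soat1 (0.41, edgeR adjusted p = 0.026) and Nceh1 (0.47, edgeR adjusted p = 0.013) were called there as well.

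The genes most like each of the 8 were taken over the 29 macrophage-like sums, centered within each library, by Pearson's correlation of log2(CPM + 1) among 7210 genes. For Apoe they were Man2b1, Csf1r and Pltp (r = 0.98, 0.97 and 0.97), and for Pltp they were Csf1r, Apoe and Adgre1 (0.97, 0.97 and 0.97). Csf1r, the receptor of M-CSF, was itself lower in efferocytic cells, with 849 and 364 CPM (non-efferocytic and efferocytic) in Experiment 1 and 732 and 300 CPM in Experiment 2. Its log2 fold change was -1.15 (edgeR adjusted p = 0.00027). Of the 8 macrophage markers 4 were lower (Csf1r, Adgre1, Fcgr1 and C1qa), 1 was higher (Cd68, 0.63, edgeR adjusted p = 0.0052) and 3 were not called (Mrc1, Lyz2 and C1qb). Sash1, Slc6a6 and Slc43a2 were nearest to Abca1 (0.91, 0.89 and 0.89), and Vapa, Prpsap1 and Ndfip2 to Abcg1 (0.87 each). Plxna1, Spag9 and Mindy1 were nearest to Soat1 (0.91, 0.89 and 0.89), and Por, Flvcr1 and Ttyh2 to Nceh1 (0.93, 0.93 and 0.93). Stxbp5, Myo5a and Sos2 were nearest to Mylip (0.87, 0.79 and 0.79). For Apoc2 they were As3mt, Dennd1c and Card9 (0.83, 0.82 and 0.82), but its sums hold few UMIs.

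Other genes of cholesterol handling were read from 9 lists with 103 genes, of which 95 were tested, 22 were higher and 34 lower by edgeR, against 19.9% (higher) and 19.0% (lower) of the 13869 genes in the test. The median log2 fold change over the lists was -0.06, against -0.02 over all genes. Scaled to UMIs per cell, 45 were higher and 5 lower, where 6921 and 586 of all 13869 genes were. With library totals 19 were higher and 40 lower, where 1847 and 3700 of all genes were. The counts below therefore hold for shares of transcripts and not for amounts per cell. Among other efflux and lipoprotein genes 2 of 10 tested were higher and 7 lower, with a median of -0.33 (0.29 per cell). Lpl, which hydrolyzes triglycerides of lipoproteins, stood at 948 and 985 CPM in the non-efferocytic and 1425 and 1378 CPM in the efferocytic libraries (log2 fold change 0.64, SE 0.125, edgeR adjusted p = 0.0055). Lrp1, a receptor of the LDL receptor family that binds APOE, had 298 and 267 CPM against 381 and 351 CPM (0.48, SE 0.0966, edgeR adjusted p = 0.0061). Both were also higher per cell. Apoc1 and Apoc4, named after their values were seen because they lie beside Apoe, were lower, from 4.49 and 4.14 CPM to 1.76 and 0.470 CPM and from 3.77 and 2.57 CPM to 2.26 and 0.490 CPM. With Apoe and Apoc2, all 4 apolipoprotein genes of this cluster on chromosome 7 were thus lower in share. Of the 5 other neighbors of Apoe, 1 was higher (Tomm40) and 1 lower (Relb, a subunit of NF-kB, log2 fold change -1.11, edgeR adjusted p = 0.00050).

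In the list of lysosomal cholesterol release and intracellular transport, 9 of 17 genes were higher and 2 lower, with a median of 0.27 (0.89 per cell). Lipa, the lysosomal acid lipase that frees cholesterol from engulfed esters, had 915 and 1066 CPM in the non-efferocytic and 1092 and 1324 CPM in the efferocytic libraries (log2 fold change 0.39, SE 0.119, edgeR adjusted p = 0.032). The groups did not overlap, though the efferocytic library of Experiment 1 lay close to the non-efferocytic library of Experiment 2. Npc2, which carries cholesterol out of the lysosome, was not called (0.15, SE 0.141, edgeR adjusted p = 0.44). Among other sterol ester, droplet and hydrolase genes, 3 of 8 were higher and 2 lower, with a median of 0.28 (0.90 per cell). Plin2, which coats lipid droplets, had 812 and 807 CPM in the non-efferocytic and 2147 and 1796 CPM in the efferocytic libraries, a log2 fold change of 1.39 (SE 0.140, edgeR adjusted p = 0.00034).

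The LXR, RXR and cofactor genes held 2 higher and 4 lower of 9 tested, with a median of -0.05 (0.57 per cell). Nr1h3, encoding LXRα, had 17.0 and 19.0 CPM in the non-efferocytic and 35.8 and 35.7 CPM in the efferocytic libraries, a log2 fold change of 1.10 (SE 0.0884, edgeR adjusted p = 0.00014) and 2.14-fold higher. Nr1h2, encoding LXRβ, had 51.7 and 46.8 CPM against 46.8 and 45.2 CPM (0.01, SE 0.0732, edgeR adjusted p = 0.92). Among 13 other genes listed as LXR targets, 3 were higher and 4 lower, with a median of 0.09 (0.71 per cell). Whether LXR controls each of them in these cells was not tested. Abca9, an ABC transporter of the ABCA family, had 23.0 and 21.5 CPM in the non-efferocytic and 6.64 and 6.55 CPM in the efferocytic libraries, and its log2 fold change of -1.65 (SE 0.0853, edgeR adjusted p = 3.4e-05) was -1.03 per cell. Lpcat3 (0.55, edgeR adjusted p = 0.0014), Smpdl3a (0.53, edgeR adjusted p = 0.0044) and Tmem135 (0.30, edgeR adjusted p = 0.016) were the 3 higher ones, named after their values were seen. Rnf145 (-0.70, edgeR adjusted p = 0.00061), Arl4c (-0.58, edgeR adjusted p = 0.0014) and Mertk (-0.25, edgeR adjusted p = 0.044), named in the same way, were lower beside Abca9, and 6 were not called. In their share of transcripts, the genes named here as LXR targets thus moved in both directions. Of the 8 genes, Abcg1 was called higher and Abca1, Apoe, Apoc2 and Pltp lower, but these calls were not equally firm. With 4 libraries, that of Pltp held in all 14 alternatives. The call was lost in 7 of 14 for Abcg1, 3 of 14 for Apoe and 5 of 13 for Apoc2. For Abca1 it was lost in 3 of 14, and in 1 more its direction turned.

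In oxysterol synthesis 2 of 5 tested were lower and none was higher by edgeR, with a median of -0.72 (-0.10 per cell). None was higher by DESeq2 or at an unadjusted p under 0.05 by edgeR with TMM, but scaled to UMIs per cell 1 was higher and 1 lower. Cyp27a1, the mitochondrial enzyme that makes 27-hydroxycholesterol, had 56.0 and 47.9 CPM in the non-efferocytic and 21.9 and 13.4 CPM in the efferocytic libraries (log2 fold change -1.49, SE 0.127, edgeR adjusted p = 0.00017). In the SREBP2 pathway of cholesterol synthesis 10 of 19 were lower and none higher by edgeR, with a median of -0.31 that turned to 0.31 per cell. Scaled to UMIs per cell, 5 of the 19 were higher and 0 lower by edgeR. At an unadjusted p under 0.05, 1 gene of this list was higher by edgeR, and DESeq2 called none higher. Fdps, which makes farnesyl diphosphate, had 43.4 and 47.2 CPM against 27.2 and 37.7 CPM (-0.39, SE 0.0884, edgeR adjusted p = 0.010). Msmo1, a sterol demethylating oxidase, was not called (0.07, SE 0.102, edgeR adjusted p = 0.59). Among the LDL receptor family and its regulators 2 of 9 were higher and 2 lower, with a median of 0.01 (0.63 per cell), and the ubiquitin-conjugating enzymes Ube2d3 (0.17, edgeR adjusted p = 0.21) and Ube2d2a (0.19, edgeR adjusted p = 0.10) were not called.

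**Figure D5:**
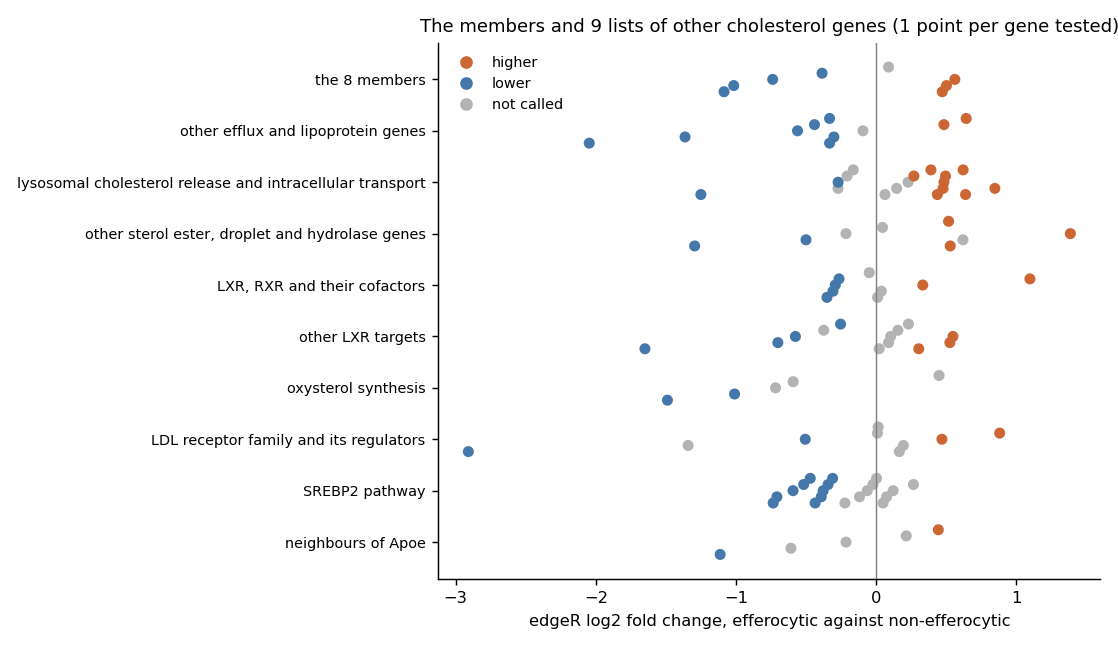
edgeR log2 fold change (x axis, efferocytic against non-efferocytic, TMM) of the 8 genes and of the genes tested in each of 9 lists, 1 point per gene, colored by whether the gene was called higher, lower or not called. The 10 called genes of the SREBP2 pathway all lie to the left of 0, and Plin2 (1.39) and Nr1h3 (1.10) lie farthest to the right of all genes shown.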

How the data were processed

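Sorted BM macrophages were measured by single-cell RNA-Seq in 4 libraries, with 1 library per group and experiment. Per the labels and methods, the authors used Cell Ranger with STAR on mm10, and the deposited values are raw UMI counts for every gene and barcode, neither normalized nor filtered (10X 3′ v3.1 kit, with a target of 10000 cells and of 50000 reads for each cell). The submitters' processing notes and the headers of Experiment 1 name Cell Ranger 3.0.0, and the headers of Experiment 2 name 3.1.0. Whether counting used the strand is not given in the sources used here.

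The thresholds of the methods on cells were applied to the unfiltered barcodes, which kept more cells than the study did, and the UMI counts were summed per library. The rule by which Cell Ranger calls cells, as an alternative, left 6158 to 10615 cells per library. The tests used edgeR 4.0.16 in R 4.3.3 (filterByExpr, glmQLFit and glmQLFTest), with the SE taken as the size of the log2 fold change divided by the square root of F, and were checked on simulated counts. The experiment number marks libraries handled together, whose deviations from the group means correlated at 0.80 over 7097 genes, and the study compared the groups within experiments, so the experiment was a block. A count of 0 in a library allows up to 0.0296 CPM at the lowest depth (3 UMIs). Intervals and this floor cover counting error only. Free RNA was read from barcodes with fewer than 100 UMIs.

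Clusters (Leiden, resolution 0.5, 20 principal components of 5000 genes, leidenalg 0.10.2) were called macrophage-like by markers. The clusters led by Arg1 (Experiment 1) and by MHC class II genes (Experiment 2) were left out of the fit on macrophage-like clusters. Their leading genes held a monocyte marker (F13a1 and Ccr2, respectively) and no macrophage marker, though both clusters held all 8 macrophage markers. They made up 0.0242% and 5.54% of cells (non-efferocytic and efferocytic) in Experiment 1 and 23.3% and 1.06% in Experiment 2. The fit thus left out unlike shares of the groups. Unnamed clusters of few UMIs held 11.2% and 7.80% of cells (non-efferocytic and efferocytic) in Experiment 1 and 18.0% and 3.77% in Experiment 2. Doublets were kept and removed in an alternative.

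Gene positions come from GENCODE vM21 on GRCm38 and promoters from RefSeq on GRCm38.p6. The genes, the lists and the alternatives were chosen with earlier results of these data known. Named from each list were the genes called at 10 CPM or more on average with an absolute log2 fold change of at least 1, or else the 2 genes of the highest mean CPM, with Nr1h2 and Nr1h3, and for each of the 8 genes the 3 with the most similar levels over macrophage-like clusters. One gene that this rule names is not reported here. The alternatives were DESeq2, other scalings, no block, other filters on genes, cells and mitochondrial UMIs, removal of free RNA, of doublets and of shared barcodes, macrophage-like clusters alone, leaving out 1 library, and other thinning. The integration and the tests on single cells of the paper were not repeated.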

Additional observations from a re-analysis of the deposited data

Results flagged for a closer look

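Mylip was the only one of the 8 genes whose efferocytic library was higher in one experiment and lower in the other. The log2 ratio of CPM was 0.20 in Experiment 1 and -0.23 in Experiment 2. With 1 library of each group in each experiment, the difference between the experiments was not tested. Of all genes tested, 80.3% had a ratio of the same sign in both experiments.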

How the results depend on the processing

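Results kept their direction over all alternatives with 4 libraries for Abcg1, Apoe, Apoc2, Soat1, Nceh1 and Pltp. Apoc2 was not tested among genes of 10 CPM or more. Calls of higher and lower genes that moved by more than 1.5 times are given here by alternative, and the cause was not tested. Without the replicate block, 1 of the 8 genes was lower, over all genes 1285 were higher and 1073 lower, and in the other lists 14 were higher and 9 lower. DESeq2 called 1417 genes lower, of which 20 were in the other lists. Scaled to UMIs per cell, 1 of the 8 was lower, over all genes 6921 were higher and 586 lower, and in the other lists 45 and 5, and the log2 fold change of Abca1 turned to 0.23. Among genes of 10 CPM or more on average, where 7097 genes were tested, 1473 were higher and 1553 lower. With 10% of UMIs removed as free RNA, 1 of the 8 was higher and 1 lower, over all genes 1391 and 1082, and in the other lists 12 were lower. With 1 library left out, which allows no block and assumes that the lone library varies like those of the other group, 0 to 1 of the 8 were higher and 0 to 3 lower. Over all genes, 0 to 1658 were then higher and 0 to 1275 lower, and in the other lists 0 to 16 and 0 to 14. Where the non-efferocytic library of Experiment 2 was left out, edgeR called 0 genes and 3494 had an unadjusted p under 0.05. Without that of Experiment 1 it called 0 higher and 2 lower, and 2999 had an unadjusted p under 0.05.

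Mylip, which was not called, had a log2 fold change of -0.018 with library totals, -0.012 in macrophage-like clusters alone and -0.0066 among genes of 10 CPM or more. With 1 library left out it ran from -0.099 (without the non-efferocytic library of Experiment 1) to 0.29 (without that of Experiment 2). Without thinning, the difference in the share of cells with a UMI turned to 0.12 and 7.71 percentage points for Abca1 in Experiments 1 and 2, to 15.7 for Mylip and to 1.33 for Pltp in Experiment 2. Of the other differences in shares under other thinning or a minimum of 2 UMIs, 11 lay within the 95% interval of the reported value and 33 outside it. Apoc2, with 56 to 133 UMIs per library, is limited by depth and free RNA.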
